A study of Mus musculus with 2 samples.

Results

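Transcript models longer than 5000 bases were described in adrenal gland tissue that had been sequenced as long reads. A model was taken when its class in either deposited table was Known, it had 2 or more exons and its length was above 5000 bases. The rule found 1934 of 22775 Known multi-exon models (8.49%), in 1750 of 12789 genes. The tissue came from male mice of the strain B6CASTF1/J, a hybrid of C57BL/6 and CAST/EiJ parents, aged 25 days. There was 1 group of 2 libraries, labelled replicates 1 and 2, with no treatment, and an RNA input of 1 µg is given for replicate 2 alone. The library descriptions name 1 animal and the tissue descriptions name different ones. The labels thus do not tell whether the spread between the libraries is technical or between animals. The libraries also differed in tissue markers, given below, and the part of this in the spread was not tested.

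A messenger RNA consists of a coding sequence between a 5′ and a 3′ untranslated region (UTR), joined from exons, and the last exon often carries most of the 3′ UTR. A long read is placed in the class Known, as the term is generally used, when it follows the chain of introns of an annotated transcript, while its outer ends may lie elsewhere. Long transcripts encode, among others, the collagens and laminins of the matrix, myosin motors, fatty acid synthase and large scaffold proteins. In the adrenal gland, whose cortex makes steroids from cholesterol and whose medulla makes catecholamines, they include the cholesterol-esterifying enzyme Soat1. The deposited length of 25163 of 25163 Known models was that of the annotated transcript, so the lengths are those of GENCODE M21 and not of reads. The term full length therefore holds here for the intron chain, not for the ends. The sum of the exons between the first and the last, called internal exon length here, is the part a read of the complete chain has to span.

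How little of the chain can set the length is seen in pairs of Known models of 1 gene that differ in their chain by a single exon and end at different annotated positions. App, which encodes the amyloid precursor protein, has the model App-206 of 8167 bases (internal exon length 2154) beside App-202 of 3120 bases (2097), so that 57 coding bases at chr16:85040251-85040307 decided between a model over and a model under 5000 bases. App-206 and App-203 (3299 bases) differ by the 54 bases at chr16:84971408-84971461. In Usp15, a deubiquitinase, Usp15-211 of 11525 bases holds 87 bases at chr10:123153041-123153127 that Usp15-201 of 4666 bases lacks. In Cbs, cystathionine β-synthase, Cbs-211 of 6226 bases holds 42 bases at chr17:31614529-31614570 that Cbs-202 of 2403 bases lacks. In Hnrnpd, which encodes an RNA-binding protein, Hnrnpd-211 of 6811 bases holds 57 bases at chr5:99976534-99976590 that Hnrnpd-203 of 1670 bases lacks. The exons are shown 5′ to 3′ on the minus strand of mm10 as the GENCODE M21 transcript gives them, with the exon in capitals and 12 bases of the neighbouring exons in lower case. All 5 have a length that keeps the reading frame and lie in the coding sequence.
App-206 exon, absent from App-202: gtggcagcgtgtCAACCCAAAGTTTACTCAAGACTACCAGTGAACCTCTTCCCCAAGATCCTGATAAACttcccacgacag
App-206 exon, absent from App-203: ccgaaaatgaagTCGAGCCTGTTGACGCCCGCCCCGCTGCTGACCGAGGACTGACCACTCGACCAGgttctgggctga
Usp15-211 exon: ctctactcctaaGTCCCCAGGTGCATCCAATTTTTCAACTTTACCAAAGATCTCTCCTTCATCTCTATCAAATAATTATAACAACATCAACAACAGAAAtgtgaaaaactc
Cbs-211 exon: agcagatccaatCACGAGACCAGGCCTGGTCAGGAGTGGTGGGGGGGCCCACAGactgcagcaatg
Hnrnpd-211 exon: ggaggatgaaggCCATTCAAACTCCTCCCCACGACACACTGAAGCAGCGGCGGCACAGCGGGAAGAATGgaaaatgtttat

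The libraries differed in depth and in tissue markers. Annotated mouse genes held 752432 reads in replicate 1 and 1210671 in replicate 2, and levels are reads per 1000000 of these (CPM). The 6 cortex markers were present in both libraries, at 60920 and 24752 CPM in sum, and the 5 chromaffin markers at 9412 and 7114 CPM. For the 6 liver markers the sum was 5.32 CPM in replicate 1, where Apoa1, Ahsg, Ttr and Fgb had 0 reads, and 43821 in replicate 2. For the 6 skeletal muscle markers it was 2402 CPM in replicate 1 and 5.78 in replicate 2, where Acta1, Ckm, Myh4 and Tnnt3 had 0 reads. The part of these tissues in the results below was not tested, and results are given with and without the liver and muscle lists (68 genes) or the 618 genes over 10-fold different between the libraries. In bulk tissue, fewer cells of a type and less RNA per cell cannot be told apart.

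Most of the length above 5000 bases lay in the last exon. The members had a median length of 6160 bases, but a median internal exon length of 1888 bases and a median last exon of 3910 bases. Shorter Known models had medians of 2051, 640 and 757 bases. The median number of exons was 14 in members and 6 in shorter models. Among the 1893 members with a coding sequence, its median was 2379 bases, against 3555 bases of 3′ UTR and 231 bases of 5′ UTR. The last exon made up more than 50% of the model in 1263 members. Only 194 members had a coding sequence above 5000 bases, and 145 an internal exon length above 5000. The 25th and 75th percentiles of internal exon length were 922.5 and 3258 bases. By annotation 1884 members were protein_coding, 26 retained_intron and 24 of other types. The intron chain of 31 members is shared with another annotated transcript, and for these the choice between the transcripts cannot come from the chain.

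**Figure D1:**
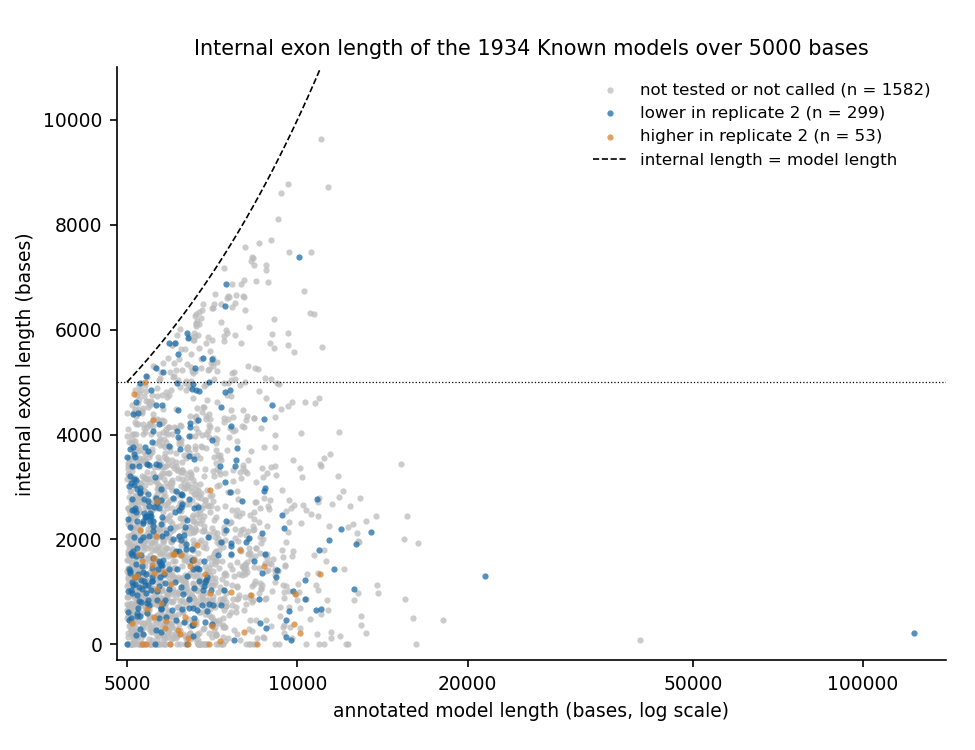
Annotated length (x axis, bases, log scale) and internal exon length (y axis, bases) of each of the 1934 Known multi-exon models over 5000 bases. Blue and orange points are models lower (299) and higher (53) in replicate 2, the dashed line marks equal lengths and the dotted line 5000 bases. Few points lie near the dashed line, and 145 lie above the dotted one.

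The longest members consisted mostly of 1 long last exon. D10Wsu102e-201 (chromosome 10, 83360221 to 83488505) is annotated with 123179 bases in 4 exons, of which the last holds 122802 and the internal exons 224. It had 19 reads in replicate 1 and 8 in replicate 2. D1Ertd622e-201 has 40378 bases and 3 exons (9 and 17 reads), Hnrnpr-207 21452 bases and 11 exons (31 and 21 reads), Ahnak-202 18100 bases and 5 exons (2 and 5 reads) and Gm37494-202 16021 bases and 6 exons (2 and 3 reads). In these 5 models the last exon holds 93.4% to 99.7% of the length. Ahnak-202, which encodes a giant scaffold protein, is the one of these whose last exon is mostly coding, with 16971 coding bases.

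Models of the other classes, ISM (part of an annotated chain), NIC and NNC (new chains), have coordinates of their own. Among multi-exon models of these classes in annotated genes, 3412 of 63125 (5.41%) exceeded 5000 bases in replicate 1 and 1540 of 80003 (1.92%) in replicate 2. The longest had 11026 bases in replicate 1, at Golgb1, and 9373 in replicate 2, at Lrpprc, with 1 read each. Both ends coincided with annotated ends in 64.7% and 58.4% of those over 5000, so these lengths may also owe part to the annotation. Members annotated as longer than the longest of them numbered 43 with 607 reads in replicate 1 and 116 with 2350 reads in replicate 2. Pnpla8-201 (13507 bases, with a last exon of 11208 and an internal exon length of 2145), which encodes a phospholipase, took 141 and 172 of those reads. Whether those reads reached the annotated ends cannot be read from the files.

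Reads were spread thinly over the members. Replicate 1 had 28631 reads in 1685 members and replicate 2 had 29295 reads in 1454. A read in both libraries was found for 1205 members, in replicate 1 alone for 480 and in replicate 2 alone for 249. The median over detected members was 4 reads in each library, 412 and 325 members had 1 read, and 53 and 61 had 100 or more. A count of 0 allows 3.99 CPM in replicate 1 and 2.48 CPM in replicate 2 (3 reads). The member was the most read Known model in 1546 of the 1750 genes (88.3%), and members took 82.0% and 80.9% of the Known multi-exon reads of their genes. Only genes with a detected member enter these shares. A gene whose long model had no read is not counted, so the rule itself raises the shares.

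Members held 5.14% of the Known multi-exon reads of replicate 1 (95% Clopper-Pearson interval 5.08 to 5.19) and 3.35% of those of replicate 2 (3.31 to 3.39), 4.24% ± 1.26 (SD, n = 2). In CPM they summed to 38051 and 24197, a ratio of replicate 2 to replicate 1 of 0.636 (counting interval 0.626 to 0.646), against 0.993 (0.990 to 0.997) for shorter Known models. Without the liver and muscle lists the shares were 5.14% and 3.65%, and the ratios 0.613 for members and 0.875 for shorter models. Here and below, leaving out these lists does not remove every model far higher in replicate 2. Rbp4-202 (11 and 3741 reads) and Apoe-206 (879 and 16450) remained among the shorter models. Without the genes over 10-fold different the shares were 5.15% and 4.17%, and the ratios 0.601 and 0.748. The member ratio was the lower in each case, and the distance between the ratios shrank. These intervals cover counting error only, and PCR copies may be counted more than once.

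The 10 members with the highest mean level held 13.9% and 16.2% of all member reads. G3bp1-201 (chromosome 11, 55469685 to 55504838), encoding an RNA-binding protein of stress granules, had 628 and 600 reads, 665 ± 240 CPM (SD, n = 2). Col3a1-201 (chromosome 1, 45311538 to 45349706), the chain of type III collagen, had 436 and 691 reads, 575 ± 6.15 CPM. Its levels differed by less than counting error. Eif4g2-213 (chromosome 7, 111067750 to 111083030), a translation initiation factor, had 666 and 230 reads, 538 ± 491.5 CPM, a log2 ratio of -2.22 ± 0.11 (SE). Hnrnpu-201, encoding a nuclear RNA-binding protein, had 480 and 474 reads, and Ppp2ca-201, the catalytic subunit of protein phosphatase 2A, 437 and 503.

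Soat1-207 (chromosome 1, 156424525 to 156474331), the enzyme that esterifies cholesterol for storage, had 565 and 169 reads, a log2 ratio of -2.42 ± 0.13 (adjusted p = 1.2e-98, Fisher's exact test). Glo1-206 (chromosome 17, 30584936 to 30612659), glyoxalase I, had 211 and 758 reads, a log2 ratio of 1.16 ± 0.11. Its last exon holds 9291 of its 9865 bases and its internal exons 382. Letm1-201, encoding an inner mitochondrial membrane protein, had 291 and 285 reads. Rab18-205, encoding a small GTPase found on lipid droplets, had 255 and 327. Cps1-201 (chromosome 1, 67123026 to 67231259), the first enzyme of the urea cycle, had 0 and 711 reads, and so was at least 147-fold higher in replicate 2 (against 3 reads in replicate 1), the library with the liver markers. Of the 10 models, 7 were lower in replicate 2, Glo1-206 and Cps1-201 were higher and Col3a1-201 was not called. Over all models tested 28.1% were lower and 10.7% higher. The 10 were chosen by their high level, and with more reads smaller differences are called. With TMM factors or size factors, which place no change at log2 ratios of -0.35 and -0.40, Col3a1-201 was called higher (0.33 and 0.38), Ppp2ca-201 lost its call and Rab18-205 lay slightly above no change (0.02 and 0.08, not called). With an assumed variation of 0.2 between replicates, 5 of the 7 lower calls were lost (edgeR exact test, adjusted p = 0.235 for G3bp1-201, 0.279 for Hnrnpu-201, 0.522 for Ppp2ca-201, 0.282 for Letm1-201 and 0.729 for Rab18-205).

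**Figure D2:**
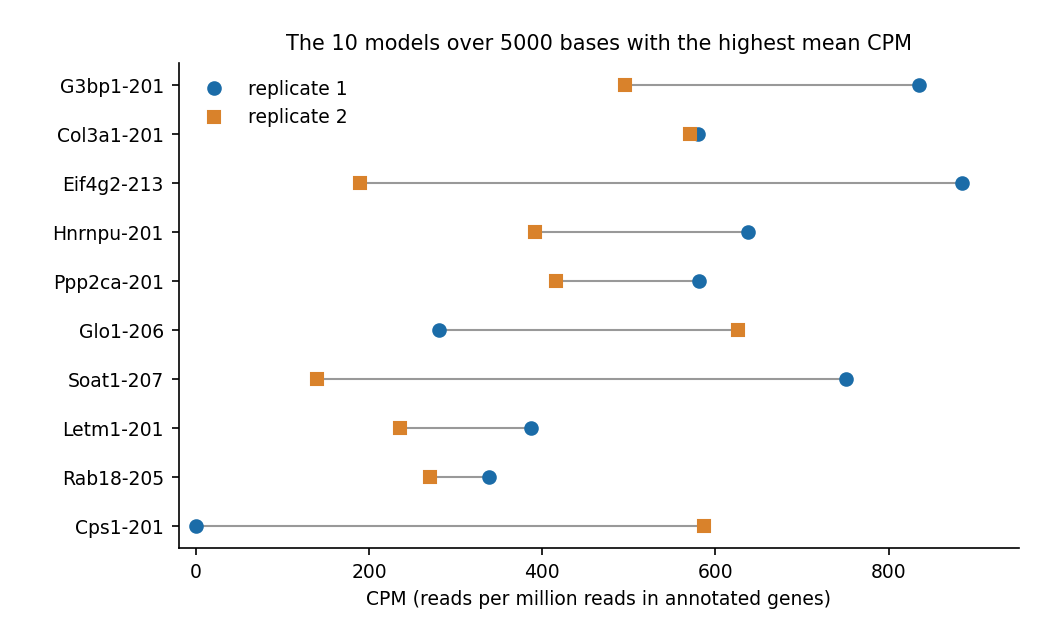
Level in CPM (x axis) of the 10 members with the highest mean, with a blue circle for replicate 1 and an orange square for replicate 2. Eif4g2-213 and Soat1-207 lie far to the right in replicate 1, Glo1-206 and Cps1-201 in replicate 2, and the marks of Col3a1-201 nearly coincide.

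Tested model by model, the members leaned to lower levels in replicate 2. The test, Fisher's exact (two-sided) with adjustment over the 9969 Known multi-exon models whose reads in the libraries summed to 10 or more, compares 2 libraries, not conditions. It could be run on 766 members, and 1168 had too few reads. Of the 766, 299 were lower and 53 higher in replicate 2. That is 46.0% called, 39.0% lower and 6.92% higher, against 38.7% called, 28.1% lower and 10.7% higher over all models tested. The lean was not particular to members. From 4000 to 5000 bases 44.2% were lower and 4.14% higher, and from 3000 to 4000 bases 42.05% and 6.40%. Up to 1000 bases 5.66% were lower and 16.8% higher. The median log2 ratio was -0.83 in these members and -0.42 over all models tested. With TMM factors 281 of the 766 were called, 207 lower and 74 higher, against 32.6% of all models tested. With size factors 271 were called, 192 lower and 79 higher, against 32.5%. With an assumed coefficient of variation of 0.2 between replicates (edgeR exact test), 182 members were called, 146 lower and 36 higher, against 18.1%. The background shares of these alternatives are for calls in either direction.

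Of the called members with at least 20 reads, ranked by the log2 ratio with the prior of 0.5 reads, the 6 with the largest decrease in replicate 2 began with Myh1-203, a myosin heavy chain of fast skeletal muscle, which had 45 and 0 reads (at least 24.1-fold lower). It stood beside muscle markers of 2402 and 5.78 CPM. Eif5b-201, a translation initiation factor, had 21 and 0 reads and Vcl-201, the adhesion protein vinculin, 20 and 0, at least 11.3-fold and 10.7-fold lower. Epas1-201, the hypoxia-inducible factor HIF-2α, had 44 and 2 reads, a ratio of 0.0282 (counting interval 0.0033 to 0.108). Ube3b-201, a ubiquitin ligase, had 24 and 1 reads, a ratio of 0.0259 (0.00063 to 0.159). Sbf1-205, a pseudophosphatase, had 22 and 1, a ratio of 0.0282 (0.000685 to 0.175).

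In the other direction, after Cps1-201, Hal-202, encoding the histidine-degrading enzyme of liver and skin, had 0 and 243 reads (at least 50.3-fold higher). Cbs-211 had 1 and 154 reads, a ratio of 95.7 (16.9 to 3805). Slc2a2-201, a glucose transporter of liver and pancreatic islets, had 0 and 54 reads (at least 11.2-fold). Dpp4-201, a membrane peptidase, had 0 and 48 reads (at least 9.94-fold). Stard4-201, a cytosolic sterol carrier, had 0 and 23 reads (at least 4.77-fold). The liver markers stood at 5.32 and 43821 CPM in the same libraries.

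By annotated length, the ratio between the libraries fell with length up to 5000 bases and showed no further order above it. The CPM ratio of replicate 2 to replicate 1 was 1.51 for models up to 1000 bases, 1.24 from 1000 to 2000, 1.00 from 2000 to 3000, 0.652 from 3000 to 4000 and 0.517 from 4000 to 5000. Among members it was 0.680 (0.664 to 0.696) from 5000 to 6000 bases, 0.563 (0.543 to 0.583) to 7000, 0.599 (0.573 to 0.626) to 8000, 0.681 (0.649 to 0.715) to 10000 and 0.542 (0.498 to 0.589) above 10000. The bin just under 5000 bases thus had a lower ratio than the first 4 bins of members, and its interval (0.511 to 0.523) lay within that of the last. Median log2 ratios were -0.96 from 4000 to 5000 and between -0.92 and -0.58 in the 5 bins above.

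By internal exon length the median of the models tested fell in every bin, while the summed ratios were not in order. Over all Known multi-exon models the median log2 ratio was -0.15 up to 500 bases, -0.35 to 1000, -0.48 to 1500, -0.69 to 2000, -0.97 to 3000, -1.42 to 4000, -1.64 to 5000 and -2.63 above 5000. The summed CPM ratios of the same bins were 1.13, 0.836, 1.08, 0.910, 1.012, 0.388, 0.873 and 0.159. Without the liver and muscle lists they were 1.07, 0.826, 0.898, 0.737, 0.600, 0.387, 0.466 and 0.140, and the bins from 1000 to 1500 and from 4000 to 5000 still stood above the one before. Among members alone, the summed ratio was 0.777 (0.756 to 0.798) with up to 1000 internal bases, 0.567 (0.554 to 0.580) from 1000 to 3000, 0.663 (0.633 to 0.695) from 3000 to 5000 and 0.159 (0.135 to 0.186) above 5000. The median log2 ratios of those tested were -0.46, -0.93, -1.27 and -2.63. The summed ratio from 3000 to 5000 moved with Cps1-201 and C3-201 of the liver list, and was 0.466 without the liver and muscle lists.

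**Figure D3:**
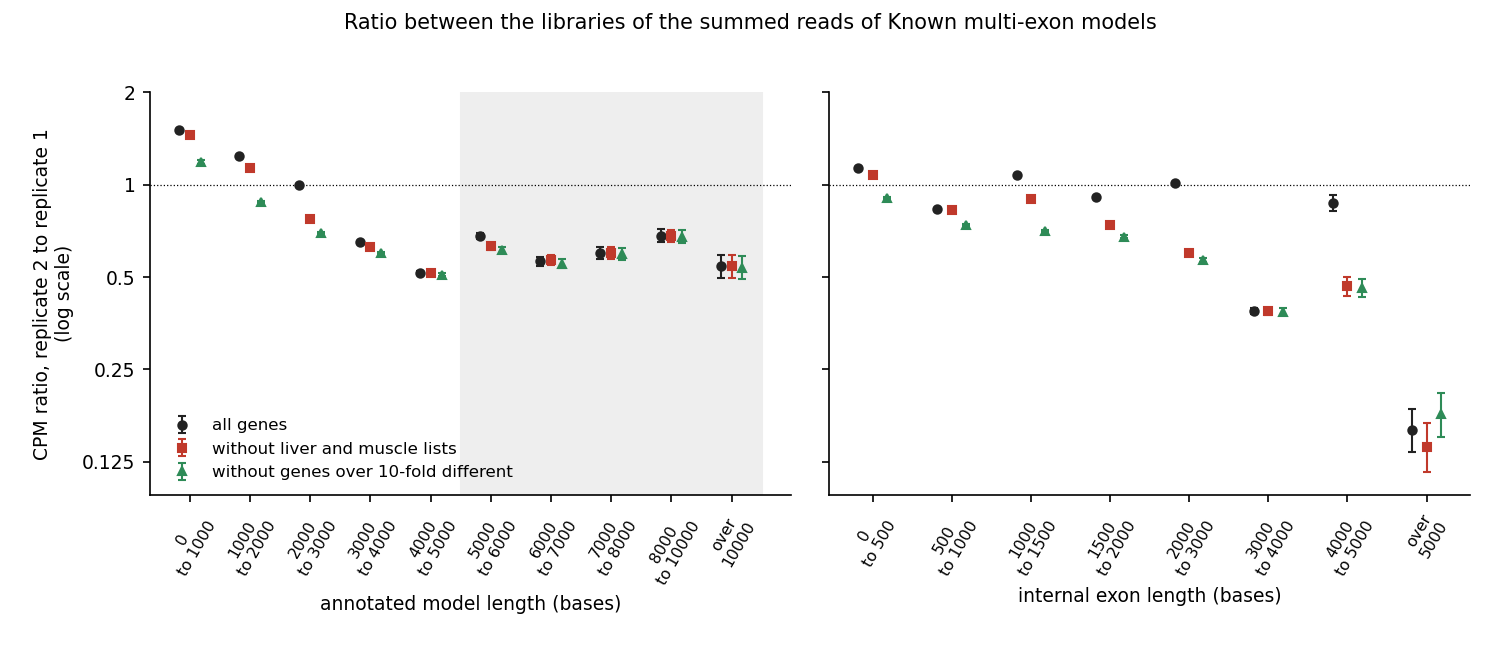
CPM ratio of replicate 2 to replicate 1 (y axis, log scale) of the summed reads of Known multi-exon models by annotated length (left, members on grey) and by internal exon length (right), in bases, with 95% counting intervals. Black circles are all genes, red squares leave out the liver and muscle lists and green triangles the genes over 10-fold different. On the left no point above 5000 bases falls below 0.5, and on the right the last bin lies near 0.16.

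At equal internal exon length, members still had lower ratios than shorter models over part of the range. With up to 500 internal bases the ratio was 0.868 (0.833 to 0.904) in 264 members and 1.14 (1.13 to 1.15) in 8941 shorter models. From 1000 to 1500 it was 0.622 and 1.09, and from 2000 to 3000 it was 0.509 and 1.09. Without the liver and muscle lists the latter pair became 0.509 and 0.615. From 3000 to 4000 bases the ratios were 0.406 (0.377 to 0.437) and 0.386 (0.376 to 0.396), and their intervals overlapped. From 4000 to 5000 bases the order of the summed ratios turned, with 0.957 in members and 0.482 in 35 shorter models. Without the liver and muscle lists they were 0.537 and 0.145. Single models weighed heavily in this bin. Eprs-201 (4906 bases) held 227 of the 348 reads of the shorter models in replicate 1 and 10 of 270 in replicate 2. Col3a1-201 held 436 of 1623 and 691 of 2500 reads of the members. Without the genes over 10-fold different, the ratios up to 500 bases were 0.859 (0.824 to 0.895) and 0.908 (0.902 to 0.914). The medians of the log2 ratios tested were -1.18 in members and -0.95 in shorter models from 2000 to 3000, and -1.07 and -1.47 from 3000 to 4000. From 4000 to 5000 they were -1.64 and -1.42 (45 and 10 models tested), so the medians did not turn with the summed ratios. Without the liver and muscle lists those medians were -1.80 and -1.91. The comparison at equal internal exon length was chosen after seeing the data.

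The 145 members with more than 5000 internal bases had 751 reads in replicate 1 and 192 in replicate 2, in 130 and 62 models. Only 19 could be tested, of which 14 were lower and 1, C4b-201 of the liver list, was higher in replicate 2, against 28.1% lower and 10.7% higher over all models tested. Fasn-201 (chromosome 11, 120805846 to 120824547), fatty acid synthase, with 10050 bases, 43 exons and 7386 internal bases, had 190 and 13 reads, a ratio of 0.0425 (0.0222 to 0.0745). The laminin chains Lamb1-201 and Lamb2-201 had 50 and 15, and 34 and 10 reads. C4b-201, a complement component, had 1 and 43, a ratio of 26.7 (4.55 to 1080). Tpr-201, a nuclear pore protein with 6867 internal bases, had 12 and 2 reads, and Myh9-201, a non-muscle myosin, 12 and 9 (not called). The ratio of the group was 0.198 without Fasn, 0.123 without C4b and 0.140 without the liver and muscle lists. The largest internal exon length in a member was 9642 bases, in Golgb1-203, a Golgi protein, with 1 and 0 reads. Ranbp2-201, a nuclear pore protein, followed with 8784 bases and 4 and 0 reads.

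Exon number gave a related order with an exception. In members of 2 to 5 exons the summed ratio was 0.743 (0.710 to 0.777), in those of 11 to 20 exons 0.598 and in those of 21 to 30 exons 0.409 (0.392 to 0.428). In members of 31 to 50 exons it was 0.824, but 0.281 (0.253 to 0.312) without the liver and muscle lists. The 21 members with 51 or more exons had a ratio of 0.792 (0.721 to 0.870), and Col3a1-201 held 436 of their 798 reads in replicate 1 and 691 of 1017 in replicate 2.

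The most exons, 68, were those of Usp24-201, a deubiquitinase, with 1 and 0 reads. Among members with a read in both libraries the 8 with the most exons, ties being broken by the mean level, were 6 collagens, Dnajc13-201 and Tpr-201. Lrrk2-201, a kinase with 51 exons as well, had 3 and 1 reads. Col5a3-201, a chain of type V collagen with 67 exons, had 59 and 44 reads and was lower in replicate 2 (log2 ratio -1.10 ± 0.29, adjusted p = 0.000528, Fisher's exact test). With size factors its call was lost (adjusted p = 0.0518), as it was with an assumed variation of 0.2 (edgeR exact test, adjusted p = 0.129). Col5a1-201 (66 exons) had 5 and 1 reads and Col5a2-201 (54 exons) 4 and 6. Col4a1-201, a basement membrane collagen of 52 exons, had 157 and 140 reads, lower in replicate 2 at -0.85 ± 0.17, a call that the assumed variation also ended (edgeR exact test, adjusted p = 0.206). Col1a1-201 (51 exons), of type I collagen, had 99 and 126 reads and was not called. Dnajc13-201 (56 exons), an endosomal protein, had 2 and 2 reads.

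The share of a gene's reads that followed a complete annotated chain also went with internal exon length. Counted were genes with at least 20 reads, at least 1 of them in a Known model. A gene without such a read is not counted, so the rule raises the shares. Acaca had 55 and 68 reads, of which 0 lay in Known multi-exon models. In the genes counted, Known multi-exon models took 78.9% and 77.0% of the reads in replicates 1 and 2. Where the most read Known model was a member, they took 63.5% (576 genes) and 59.9% (575 genes). Where that model had more than 5000 internal bases, the share was 19.1% (17.6 to 20.6, 37 genes) and 11.4% (9.52 to 13.5, 17 genes). Reads of an ISM suffix, the 3′ part of a chain, took 60.4% and 57.2% there. Fasn held 1318 of the 2832 reads of that bin in replicate 1, and without it the share was 22.8%. In replicate 2 a short retained-intron model was the most read Known model of Fasn, so the gene is not in that bin. For members with up to 5000 internal bases the share was 66.7% and 61.0%. The 5′ parts of chains (ISM prefix) took 1.35% and 4.41% of the reads of genes led by a member. Over all genes counted they took 0.699% and 1.43%.

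**Figure D4:**
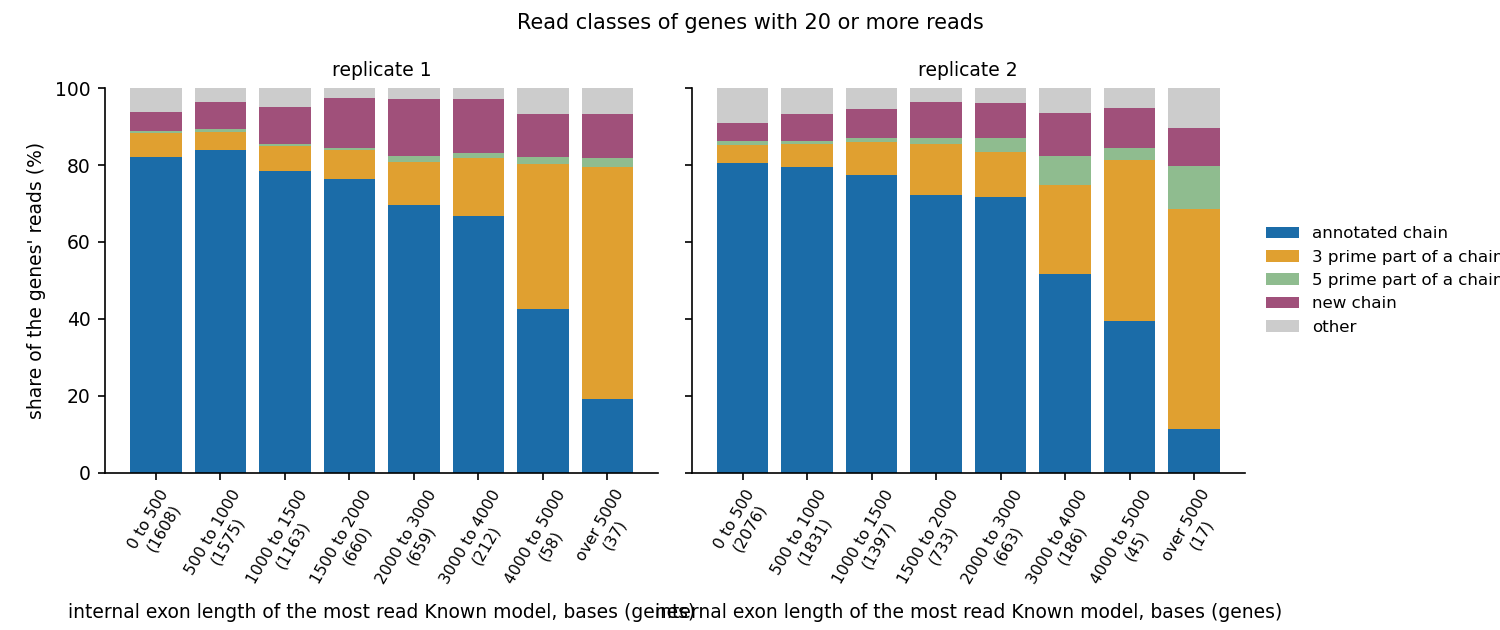
Share of gene reads (y axis, %) by read class in genes with 20 or more reads, by internal exon length of the most read Known model (x axis, bases, number of genes in brackets), for replicate 1 (left) and replicate 2 (right). Genes without a read in a Known model are not shown. The share of complete annotated chains (blue) falls from 82.0% and 80.5% up to 500 bases to 19.1% and 11.4% above 5000, where 3′ parts of chains (yellow) take most reads.

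Single genes showed the range. The member of G3bp1 took 91.4% of the gene's 687 reads in replicate 1 and 90.9% of its 660 in replicate 2, with an internal exon length of 1206. Soat1-207 took 82.5% and 67.6% of the Soat1 reads, and their intervals did not overlap (79.4 to 85.3 and 61.4 to 73.4). Col3a1-201 took 80.4% and 85.4% despite its 51 exons. Col4a1-201 took 34.4% and 42.8%, and C3-201 37.5% and 26.1%. Fasn-201 took 14.4% (12.6 to 16.4) of 1318 reads and 1.92% (1.03 to 3.26) of 677, while 984 and 540 reads held a 3′ part of its chain. Tpr had 13 member reads of 28 in replicate 1 and 2 of 72 in replicate 2, where 27 reads held a 5′ part of the chain.

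Members of 11 gene lists were counted by function. The lists were drawn up with earlier results of these data known. A background of 28.1% lower and 10.7% higher over models of all lengths applies to each count. Among all tested members the shares were 39.0% lower and 6.92% higher. In the extracellular matrix list 17 of 36 genes had a member, and 7 of the 11 tested were lower and 0 higher in replicate 2 (median log2 ratio -1.10), at 1012 and 1119 reads. In the cytoskeleton and motor list 5 of 7 tested were lower and 0 higher (median -2.16). Kif5b-201, a kinesin heavy chain, had 113 and 39 reads, and Cltc-202, the clathrin heavy chain, 33 and 15.

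In the lipid and cholesterol list 4 of 5 were lower and 0 higher, at 804 and 203 reads. Soat1-207 and Fasn-201 led, followed by Lpin1-201, a phosphatidate phosphatase, with 17 and 6 reads. The RNA processing and translation list had 5 of 11 lower and 1 higher (median -1.79), with Eif3a-201, a subunit of initiation factor 3, at 81 and 62 reads. The chromatin list had 19 members but 1 tested, Ncoa1-201, a nuclear receptor coactivator, lower at 13 and 2 reads. Next to it were Chd1-201, a chromatin remodeller (5 and 4 reads), and Baz1b-201 (5 and 3).

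The tissue lists moved with the markers given above. All 3 tested members of the liver list were higher in replicate 2. C3-201, the central complement component, had 36 and 416 reads, so unlike Cps1-201 it was present in replicate 1. Both tested members of the muscle list were lower, but they are models of 1 gene, Myh1-203 (45 and 0 reads) and Myh1-201 (11 and 0). Myh7-201 (9 and 0 reads) and Myh4-202 (6 and 0) could not be tested. Of 4 tested endothelial and macrophage members 1, Kdr-201, a receptor for vascular endothelial growth factor, was lower (23 and 9 reads). Cd93-201 (5 and 12 reads) and Flt1-203 (5 and 9) were not called.

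Members from genes of adrenal signalling or of neurons had few reads. The steroidogenic signalling list of 31 genes had 9 members with 19 and 9 reads, none with enough reads to test. Pde4dip-201, an anchor of phosphodiesterase, had 7 and 2 reads, Kcnk9-201, a potassium channel with 2 exons and 12300 bases, 5 and 0, and Cacna1h-201, a T-type calcium channel with 6054 internal bases, 2 and 0. The chromaffin and neuronal list of 44 genes had 2 members, among them Stxbp5-201 (2 and 0 reads), a regulator of vesicle fusion. The list of ubiquitin ligases and kinases had 20 members with 31 and 20 reads, led by Ubr3-201 (4 and 4), Trip12-201 (3 and 4) and Ubr2-202 (3 and 0). None could be tested.

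Pairs of Known models that differ by 1 exon gave exon inclusion as a share of the reads of the pair. Other models of the gene, such as App-204 (33 and 69 reads), do not enter this share. There were 70 pairs with at least 1 member, in 65 genes, each model having 5 or more reads. In 14 pairs both models were members, and in 50 the annotated lengths differed by over 1000 bases. The exon lay within the coding sequence in 50 pairs, and 40 of those exons had a length that keeps the frame. Inclusion differed between the libraries in 0 of the 70 pairs, and 0 had an unadjusted p under 0.05 (Fisher's exact test, two-sided), against 0.578% called of 692 pairs of any length. This does not show equal inclusion, since the intervals are wide.

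For the App exon of 57 bases shown above, 87 of 158 reads of the pair included it in replicate 1, 55.1% (95% Clopper-Pearson interval 47.0 to 63.0), and 56.0% (48.5 to 63.3) did in replicate 2. For its exon of 54 bases inclusion was 66.4% (57.6 to 74.4) and 57.9% (50.2 to 65.2). The Usp15 exon was included in 46.4% (34.3 to 58.8) and 50% (38.9 to 61.1) of reads, and that of Hnrnpd in 48.8% (33.3 to 64.5) and 40.2% (29.9 to 51.3). The Cbs exon was in 1 of 4 reads in replicate 1, 25.0% (0.631 to 80.6), and in 70.0% (63.5 to 76.0) in replicate 2. Mprip-204 and Mprip-202, of a myosin phosphatase partner and both over 8000 bases, differ by 66 bases, included in 60.3% (53.2 to 67.1) and 60.4% (52.3 to 68.0). In H13, a signal peptide peptidase, the model without the exon of 200 bases is the member, and inclusion was 13.4% (9.38 to 18.4) and 8.31% (5.45 to 12.02). Hnrnpr-207 includes 169 bases that Hnrnpr-204 lacks, at 39.7% (28.8 to 51.5) and 25.3% (16.4 to 36.0).

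**Figure D5:**
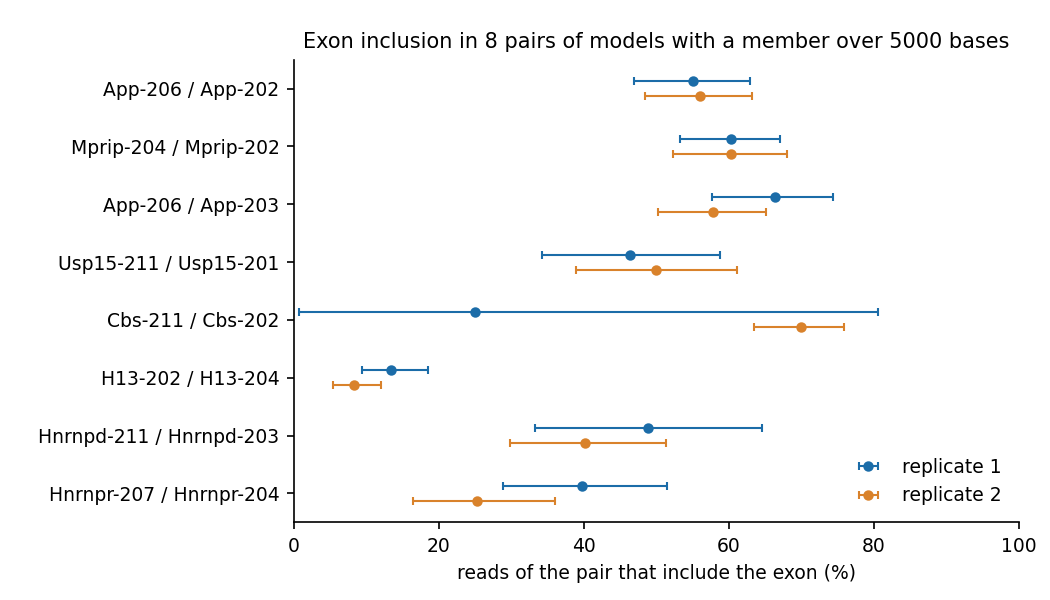
Share of the reads of a pair of models that include the exon (x axis, %), with 95% Clopper-Pearson intervals, for the 8 pairs with the most reads of the less read model (including model / skipping model), in replicate 1 (blue) and replicate 2 (orange). The intervals of the libraries overlap in all 8 pairs.

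In Eprs, chosen after its values were seen, the libraries were led by models on different sides of 5000 bases, as in Fasn. Eprs encodes the glutamyl-prolyl-tRNA synthetase. Its coding model Eprs-201 has 32 exons, 4906 bases and 4342 internal bases, and had 227 reads in replicate 1 and 10 in replicate 2. Eprs-204, annotated as a retained intron, shares the start, has 20 exons and 5638 bases with 2729 internal, and had 14 and 333 reads. The gene as a whole had 280 and 393 reads. The member thus took 5% (2.76 to 8.25) of the gene's reads in replicate 1 and 84.7% (80.8 to 88.1) in replicate 2. Eprs-204 held 333 of the 462 reads of the 41 members without a coding sequence in replicate 2, against 14 of 103 in replicate 1.

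Models on both sides of the threshold of 5000 bases varied in structure. Just above it lay Btg1-201 (5001 bases, 172 and 199 reads), an antiproliferative gene of 2 exons, Dennd5a-201 (5004 bases, 60 and 24 reads) and Tgoln1-201 (5013 bases, 161 and 68 reads), a protein of the trans-Golgi network. Just below lay Fbxw8-201 (5000 bases, 95 and 53 reads), Mrpl19-201 (5000 bases, 17 and 16 reads) and Rfc2-201 (4995 bases, 45 and 65 reads).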

How the data were processed

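The authors deposited raw read counts of transcript models, 1 table and 1 annotation for each of 2 libraries. Per the labels the assembly is mm10, and per the file headers the annotation is GENCODE M21. The aligner and tool versions: not given in the sources used here. Known models of both libraries were joined by transcript identifier, and levels were expressed as CPM, with spike-ins and loci outside annotated genes left out of the total. Models with at least 10 reads were compared by Fisher's exact test (SciPy 1.17.1, Python 3.11.15), adjusted by Benjamini-Hochberg over all lengths (threshold 0.05). A prior of 0.5 reads was added for log2 ratios, whose SE is the counting error. The procedure was run on simulated counts with counting error alone, so it was not tested with variation between libraries. Exon pairs were adjusted over all 692 pairs rather than over those with a member. Alternatives used edgeR 4.0.16 and DESeq2 1.42.0 scaling, other thresholds, minimums and denominators. Named models are the 10 highest, the 8 with the most exons, the 5 longest, the 6 largest folds each way, up to 3 per list (some are not reported here), 8 exon pairs and 3 on each side of the threshold. Models over 5000 internal bases, Pnpla8 and Eprs were added after their values were seen. Members and lists were chosen with earlier results of these data known.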

Additional observations from a re-analysis of the deposited data

Results flagged for a closer look

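Signal lay in long models outside the members. Single-exon Known models over 5000 bases, which the rule on exon number leaves out, had 607 reads in replicate 1 and 4132 in replicate 2, above the limit of 3 reads that a count of 0 allows. Malat1-201, a nuclear noncoding RNA of 6983 bases, held 43 and 2980 of them, Neat1-201 105 and 240, and Purb-201 37 and 220.

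Multi-exon models over 5000 bases of new or incomplete chains had 6069 reads in replicate 1 and 2527 in replicate 2. By class, ISM models had 2076 and 889 of these reads, NIC models 2495 and 1031 and NNC models 1498 and 607. Each class had fewer reads in replicate 2, the more deeply sequenced library.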

How the results depend on the processing

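The mean share of reads in members, 4.24%, became 12.1% with a threshold of 4000 bases, 2.16% with 6000 and 0.167% with 10000, and ranged from 3.35% to 5.14% when either library was left out. Other denominators, gene sets and model classes moved it by less than the SD. The 352 members called became 182 with an assumed variation of 0.2. All 182 were among the 352, and with every other alternative the number stayed within 1.5 times. The log2 ratio of summed member reads, -0.65, became -0.30 with TMM, -0.25 with size factors, -2.65 and -0.62 above and up to 5000 internal bases, -0.735 without genes over 10-fold different, -0.71 without the liver and muscle lists and -0.74 without Cps1, Glo1 and C3 (chosen after seeing the data). The median log2 ratio of tested members, -0.83, became -0.48 with TMM, -0.42 with size factors, -0.93 with a minimum of 5 reads and -2.63 above 5000 internal bases. The median over all models moved with it, to -0.07 with TMM and -0.02 with size factors. The mean full-chain share of genes led by a member, 61.7%, became 65.8% with a minimum of 50 reads and ranged from 59.9% to 63.5% when either library was left out. Exon pairs gave 0 calls under each alternative, also when adjusted over the pairs with a member. Leaving out a library allows no comparison of inclusion. Rab18-205, lower at -0.33, had 0.0204 with TMM and 0.0764 with size factors. No paired analysis was possible because there is 1 group. Depth limits single members, since 1168 of 1934 had under 10 reads in all. With the assumed variation 11 of 38 named models lost their call. Some of the 38, such as Col3a1-201 and Col1a1-201, had no call to lose.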
